A study of Rattus norvegicus with 58 samples.

Results

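Livers of outbred heterogeneous stock (HS) rats were compared with livers of inbred rats. All 58 arrays of the study entered the comparison, 46 from HS rats and 12 from inbred rats. The inbred strains were ACI and BN, BUF and F344, and M520 and WKY, with 2 arrays each. Arrays were assigned by sample title, and the inbred level of a gene is the mean of the 6 strain means, so that each strain counts once. An HS mean was also marked as outside the strains when it lay above the highest or below the lowest of the 6 strain means.

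Every rat was a male of 17 weeks that had been kept 2 to a cage with free access to food, then fasted overnight and decapitated, per the labels. The labels used here list no engineered allele and no agent given to any rat. The HS rats were 23 with normal glucose tolerance and 23 with glucose intolerance, grouped from titles and the design text because the wording of 1 intolerant-rat description is mixed, naming both states. The study's own question concerned glucose intolerance within the HS rats, and the inbred arrays give the levels of strains to set them against. The labels do not place a strain's 2 arrays in different litters or cages, so p-values speak only to the spread among these arrays, part of which may be technical. Source, cage and processing batch are not recorded per array, so HS against inbred and any unrecorded batch cannot be told apart.

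HS rats come from a colony founded by intercrossing inbred strains and then kept outbred, so each animal carries its own mosaic of founder chromosomes. Rats of 1 inbred strain are near copies of each other. The 6 strains here are founders of the HS colony, whose other founders, MR and WN, were not analysed here. Where a gene's liver level is set by a founder allele nearby, a rat of such a colony may have the level of any founder. The liver is a natural place for the comparison, because its cytochromes, transferases and interferon-responsive genes differ widely among rat strains.

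The deposited values are on a log2 scale, so a difference of 1 is a doubling, and levels are compared between groups and never between genes. They ran from 1.86 to 14.97, with array medians between 5.33 and 5.39 and no pair of identical arrays. The arrays carried the liver's own transcripts: the mean log2 level of 15 hepatocyte markers such as albumin and apolipoproteins was 12.74 to 12.96 in HS rats and 12.84 to 13.10 across strain means. Correlations between pairs of HS arrays ran from 0.976 to 0.995 (median 0.990), between HS and inbred arrays from 0.969 to 0.993 (median 0.986), and between arrays of different strains from 0.972 to 0.991 (median 0.984).

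Most of the liver transcriptome stood at much the same level in both kinds of rat. Of 31042 probe sets tested with limma, 73 (0.235%) were called at an adjusted p under 0.05, 46 (0.148%) higher and 27 (0.087%) lower in HS rats. For 91.6% of probe sets the 95% interval excluded differences beyond 0.5 in size, and for 98.7% beyond 1. With 1 probe set per gene, 44 of 14217 genes (0.309%) were called, 31 (0.218%) higher and 13 (0.0914%) lower. A difference of 1 or more was measured for 31 genes, called or not, and the median difference over all genes was -0.01.

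The HS mean lay outside all 6 strain means for 1783 probe sets (5.74%) and 735 genes (5.17%), with 312 genes above (2.19%) and 423 below (2.98%). Of these, 26 were also called (0.183% of all genes), 18 above and 8 below, and the other 18 called genes had an HS mean between those of the strains. In no probe set did all 46 HS rats lie on one side of all 12 inbred arrays. The furthest separated gene was Ppp1cc, a catalytic subunit of protein phosphatase 1, where 39 of 46 HS rats exceeded every inbred array. Its means differed by only 0.13, and it was not called by limma (adjusted p = 0.189, limma). The fit with separate spreads described below did call it. In 235 probe sets (0.757%) more than 23 of the 46 HS rats lay beyond every inbred array.

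**Figure D1:**
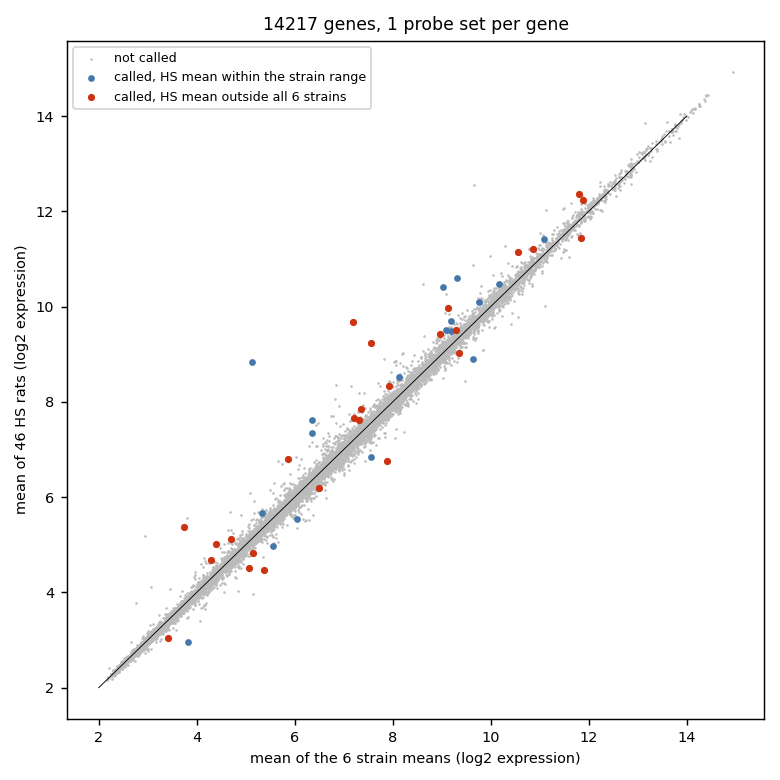
Mean log2 level of 46 HS rats (vertical) against the mean of the 6 strain means (horizontal) for 14217 genes, with 26 called genes outside all strains in red, 18 called genes within the strain range in blue and the line of equal levels in black. Most genes lie on the line, and the called genes lie off it on both sides, 31 above and 13 below.

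The limma fit gives HS rats and strain means a common spread, which 46 HS rats and only 6 strains determine. In 65 of the 73 called probe sets the strain means varied more (larger SD) than the HS rats, and the p-values of those calls are too small for a statement about inbred strains at large. A fit with separate spreads called 30 probe sets (0.0966%), 13 higher and 17 lower, all with an HS mean outside the strains. Only 1 gene was called by both, Mis18a. In 0 of the 30 did the strain means vary more than the HS rats. That fit takes the strain spread from 6 means alone, so it favours genes whose strain means lie close together, and its small p-values carry that limit. An exact rank-sum test called 0, with 2392 at an unadjusted p under 0.05 against 2675 by limma. With the strains as fixed groups, which leaves out the spread between strains, 1530 probe sets (4.93%) were called.

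Ifgga2l1, which encodes an interferon-gamma-inducible GTPase, gave the largest difference among the 26 called genes outside all strains. It was at 7.91, 9.65 and 10.85 (lowest, median and highest HS rat, log2) with a mean of 9.67 ± 0.67 (SD, n = 46). The strain means were 9.29 in ACI, 8.33 in BN, 4.95 in BUF, 5.04 in F344, 9.45 in M520 and 6.13 in WKY. ACI, BN and M520 therefore lay inside the HS range and the others far below it, and 29 HS rats exceeded the highest inbred array. The difference from the inbred level of 7.20 was 2.47 ± 0.38 (SE; adjusted p = 0.00051, limma), 1.60 when linear levels were averaged before taking logs, and the call held in each of 18 fits that left out 1 strain or 1 inbred array.

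RGD1309362, the measured gene next to Ifgga2l1 on chromosome 18, was higher in HS rats too. Its HS rats were at 5.62, 9.35 and 10.67 (lowest, median, highest), and the strain means were 10.14 in ACI, 6.0 in BN, 5.53 in M520 and between 2.74 and 3.20 in the other strains. The HS mean of 8.83 ± 1.47 (SD, n = 46) thus lay below ACI, and 36 of 46 HS rats stood above a gap from 7.37 to 8.52. The difference was 3.71 ± 0.69 (SE; adjusted p = 0.004, limma) on the log2 scale but 1.61 for averaged linear levels, and it was called in each of the 18 fits. The levels of BUF, F344 and WKY lie near the low end of the values, where no detection call was used here, so the difference from them is not a measured fold. Probe sets of gene families can pick up related transcripts, which was not tested for this pair.

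Rtp4, Ifnar2 and Fas were also called higher, closer to the threshold, and are described next for their known roles in immune signalling; as a group they were picked after their values were seen. Rtp4, an interferon-induced receptor transporter protein, was at 8.97, 10.06 and 10.69 (lowest, median, highest HS rat) against strain means of 7.76 in F344 and 9.03 to 9.76 in the others. The difference was 0.85 ± 0.19 (SE; adjusted p = 0.0349, limma), and 32 HS rats exceeded all inbred arrays. The call was lost without BN, BUF, F344 or M520, with an adjusted p of up to 0.337. Ifnar2, a subunit of the receptor for type I interferons, was at 8.81, 9.43 and 9.96 in HS rats and at 8.73 to 9.36 in strain means, a difference of 0.45 ± 0.11 (SE; adjusted p = 0.0397, limma). Another probe set of Ifnar2 differed by -0.19 and was not called, so its probe sets disagree, and the first call was lost without ACI, BN, F344, M520 or WKY, or 1 array each of BUF, M520 and WKY (adjusted p up to 0.148).

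Fas, the death receptor through which lymphocytes trigger apoptosis, was at 5.66, 6.70 and 7.91 (lowest, median, highest HS rat). The strain means ran from 5.33 in M520 to 6.47 in ACI, and 27 HS rats exceeded all inbred arrays. Its difference of 0.93 ± 0.22 (SE) sat at the threshold (adjusted p = 0.0499, limma). The call was lost in 10 of the 18 fits, those without BN, BUF, F344, M520 or WKY and those without 1 array each of ACI, BUF, F344, M520 and WKY (adjusted p up to 0.197). Its 2 dimmer probe sets differed by 0.09 and 0.43 and were not called.

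The promoters of Ifgga2l1, Fas and Ifnar2 are shown because all were higher in HS rats and each holds a match to a motif bound by interferon-activated factors. The sequences are the reference (BN) sequence from RefSeq on GRCr8, 250 bases before to 50 after the start site, 5′ to 3′ on the gene's strand. They lie at chr18:56031657-56031956, chr1:241211905-241212204 and chr11:44099520-44099819, all on the plus strand, and span the start of each gene. Capitals mark matches, on either strand, to the interferon-stimulated response element searched as GAAA, any 2 bases and GAAA again, and to the gamma-activated site searched as TTCNNNGAA.
Ifgga2l1: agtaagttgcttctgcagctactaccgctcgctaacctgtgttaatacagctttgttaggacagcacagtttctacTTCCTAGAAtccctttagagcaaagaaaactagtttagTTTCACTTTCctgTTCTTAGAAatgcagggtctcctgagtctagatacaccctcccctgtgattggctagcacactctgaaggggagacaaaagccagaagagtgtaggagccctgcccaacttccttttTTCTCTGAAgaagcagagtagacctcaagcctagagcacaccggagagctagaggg
Fas: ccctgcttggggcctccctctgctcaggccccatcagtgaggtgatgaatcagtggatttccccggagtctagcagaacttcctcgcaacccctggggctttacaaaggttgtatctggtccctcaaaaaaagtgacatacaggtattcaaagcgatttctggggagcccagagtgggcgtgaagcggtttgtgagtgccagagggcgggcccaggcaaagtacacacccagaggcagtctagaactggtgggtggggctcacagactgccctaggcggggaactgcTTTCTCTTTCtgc
Ifnar2: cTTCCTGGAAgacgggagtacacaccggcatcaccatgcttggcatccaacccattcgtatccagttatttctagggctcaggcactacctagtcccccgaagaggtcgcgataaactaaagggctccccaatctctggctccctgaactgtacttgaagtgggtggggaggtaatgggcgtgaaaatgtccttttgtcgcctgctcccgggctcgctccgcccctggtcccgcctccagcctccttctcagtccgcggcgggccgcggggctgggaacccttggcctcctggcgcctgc

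Ifgga2l1 holds 1 response element, at -136 to -127 from the start site, and 3 gamma-activated sites, at -174, -123 and -6. Fas holds a response element at 38 to 47 after the start, and Ifnar2 a gamma-activated site at -249. Over all 27457 promoters of the table, 3.77% hold the first motif and 8.68% the second. Of the 31 genes called higher, 27 had a promoter in the table, and 3 of those held the first motif and 4 the second. Of the 13 called lower, 9 had one, and 1 held each motif. A match describes the letters only.

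In a list of 30 interferon response genes, 26 were measured and 0 were called by limma, against 0.309% of all genes, so a list of this size would hold few calls at that share. The HS mean lay outside the strains for 0 of the 26, against 5.17% of all genes, and 21 had a higher mean in HS rats, with a median difference of 0.20 against -0.01 over all genes. The mean level of the list was 6.97, 7.56 and 8.27 (lowest, median, highest HS rat) and ran from 6.83 in BN to 8.04 in WKY, so HS rats spread across the strain range. The largest values were 0.75 for the chemokine Cxcl10, 0.55 for the GTPase Irgm and 0.49 for the antiviral GTPase Mx2, with adjusted p of 0.451, 0.38 and 0.672 (limma).

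Slc35c2, which encodes a nucleotide-sugar transporter family member of the early secretory pathway, gave the smallest p of any gene. Its HS rats were at 7.03, 9.34 and 9.76 (lowest, median, highest), with a mean of 9.23 ± 0.46 (SD, n = 46). Both BN arrays were in the same range, at 9.17 and 9.28, whereas the other five strains had means of 7.02 to 7.53. A single HS rat stood at the low level, and the other 45 were at 8.43 or above. The difference was 1.68 ± 0.22 (SE; adjusted p = 7.99e-06, limma), was called in each of the 18 fits, and the HS mean exceeded the BN mean of 9.23 by too little to separate them.

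**Figure D2:**
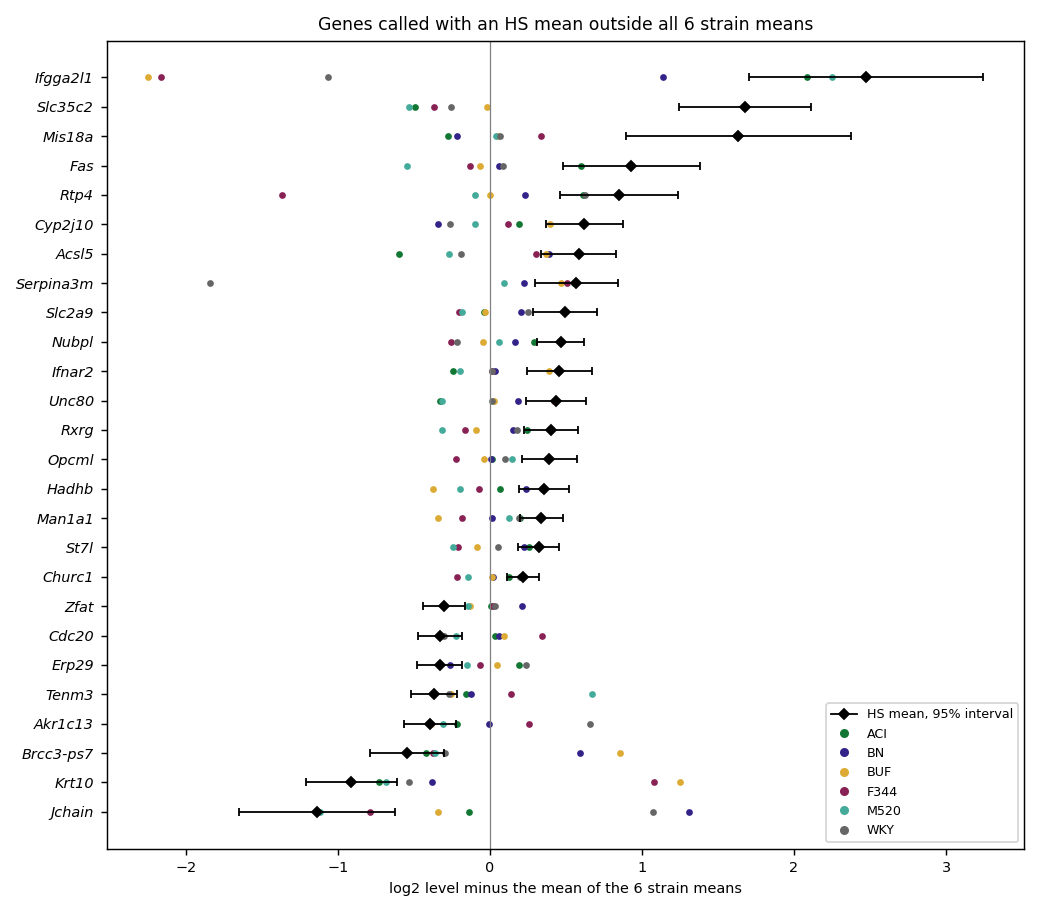
Log2 level relative to the mean of the 6 strain means for the 26 called genes with an HS mean outside all strains, with black diamonds for the HS mean and coloured points for the strain means. Bars show the 95% interval of the difference from the inbred level, which also carries the error of the 6 strain means. HS means lie beyond the coloured points in every row, from 2.47 for Ifgga2l1 to -1.14 for Jchain. The bar reaches the nearest strain mean in 18 of the 26, which is no test of HS rats against that strain.

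Other genes outside all strains were higher in HS rats by smaller amounts, and they are named one by one, not as a tested group. Acsl5, which activates long-chain fatty acids by joining them to coenzyme A, was at 10.40, 11.12 and 11.68 (lowest, median, highest HS rat) against 9.96 in ACI and up to 10.94 in BN. The difference was 0.58 ± 0.12 (SE; adjusted p = 0.0176, limma), with 30 HS rats above all inbred arrays, and it was lost without ACI, M520 or WKY (adjusted p up to 0.0973). A dimmer probe set of Acsl5 differed by -0.18 and was not called.

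Hadhb, the thiolase subunit of the mitochondrial trifunctional protein of fatty acid oxidation, was at 11.78, 12.28 and 12.53 in HS rats and at 11.51 to 12.23 in strain means. It differed by 0.36 ± 0.08 (SE, adjusted p = 0.0346 by limma), yet only 2 HS rats exceeded all inbred arrays. The call was lost without BUF, F344 or M520 or 1 array each of F344, M520 and WKY (adjusted p up to 0.262). Hadha, the next measured gene and the other subunit of that protein, differed by 0.09 and was not called. Rxrg, a retinoid X receptor that pairs with other nuclear receptors, was at 7.74, 8.38 and 8.77 in HS rats and at 7.62 to 8.17 in strain means. Its difference was 0.40 ± 0.09 (SE, adjusted p = 0.0251 by limma), and 38 HS rats lay above every inbred array. The call was lost without BUF, F344 or M520 (adjusted p up to 0.141). A dimmer probe set of Rxrg differed by 0.12 and was not called.

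Nubpl, an assembly factor for mitochondrial complex I, was among the steadiest differences. HS rats were at 7.33, 7.67 and 8.10 (lowest, median, highest) and strain means at 6.95 to 7.49, with 35 HS rats above all inbred arrays. The difference was 0.46 ± 0.08 (SE; adjusted p = 0.000824, limma) and was called in each of the 18 fits. Slc2a9, a urate transporter, was at 7.22, 7.88 and 8.32 in HS rats and 7.16 to 7.61 in strain means, a difference of 0.49 ± 0.10 (SE; adjusted p = 0.0176, limma) that was lost without BUF, F344 or M520 (adjusted p up to 0.0791).

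Serpina3m, a secreted protease inhibitor of the acute phase family, shows how a single strain can set the inbred level. HS rats lay at 12.02, 12.38 and 12.66 (lowest, median, highest), WKY at 9.78 and 10.14, and the other strains at 11.89 to 12.35. The difference of 0.57 ± 0.14 (SE; adjusted p = 0.0463, limma) became 0.20 without WKY (adjusted p = 0.356). The call was also lost without BN or M520 or 1 array each of BN, BUF, F344, M520 and WKY.

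Mis18a, which helps place the centromeric histone onto chromosomes, was the gene called under both treatments of the spread. The 12 inbred arrays lay between 3.39 and 4.11, a level below the median of all values. HS rats were at 3.35, 5.50 and 6.63 (lowest, median, highest): 37 were above every inbred array, 8 within their range and 1 below, with an empty gap from 3.98 to 4.73. The difference was 1.63 ± 0.37 (SE; adjusted p = 0.0334 by limma and 3.54e-07 with separate spreads). Leaving out any 1 strain ended the limma call (adjusted p up to 0.0874) while the difference stayed between 1.58 and 1.70. Ifnar2 lies on the same chromosome with 9 measured genes between, and the 3 nearest measured genes on each side of Mis18a were not called.

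The fit with separate spreads also called genes that were near one level in the strains and spread out in HS rats, the kind of gene it favours. Fam111a, a protease that restricts some viruses and acts in DNA replication, lay between 2.63 and 3.17 on all 12 inbred arrays. Of the HS rats, 24 lay above that range, at 6.50 or more, and 22 at 3.14 or less, with none between; 14 of the 24 had normal glucose tolerance and 10 were intolerant. The HS mean of 5.19 ± 2.33 (SD, n = 46) thus describes few animals. Its difference was 2.25 ± 0.93 (SE), with an adjusted p of 0.000394 with separate spreads and 0.454 by limma. The inbred level lies near the low end of the values (lowest 1.86) and was not shown to be above background, so that difference is not a measured fold.

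Esm1, a proteoglycan secreted by endothelium, was at 3.28, 5.80 and 8.67 (lowest, median, highest HS rat) and between 3.15 and 4.77 on the inbred arrays, with 35 HS rats above them. The difference was 1.77 ± 0.45 (SE; adjusted p = 0.000635 with separate spreads, 0.0732 by limma). Bhlhe40, a clock-linked repressor, differed by 0.81 and Eva1a, an autophagy-linked membrane protein, by 0.55, with adjusted p of 0.00819 and 0.000438 with separate spreads. Camk2n1, an inhibitor of the kinase CaMKII, differed by -0.33 (adjusted p = 0.0122 with separate spreads). None of these genes except Mis18a was called by limma.

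**Figure D3:**
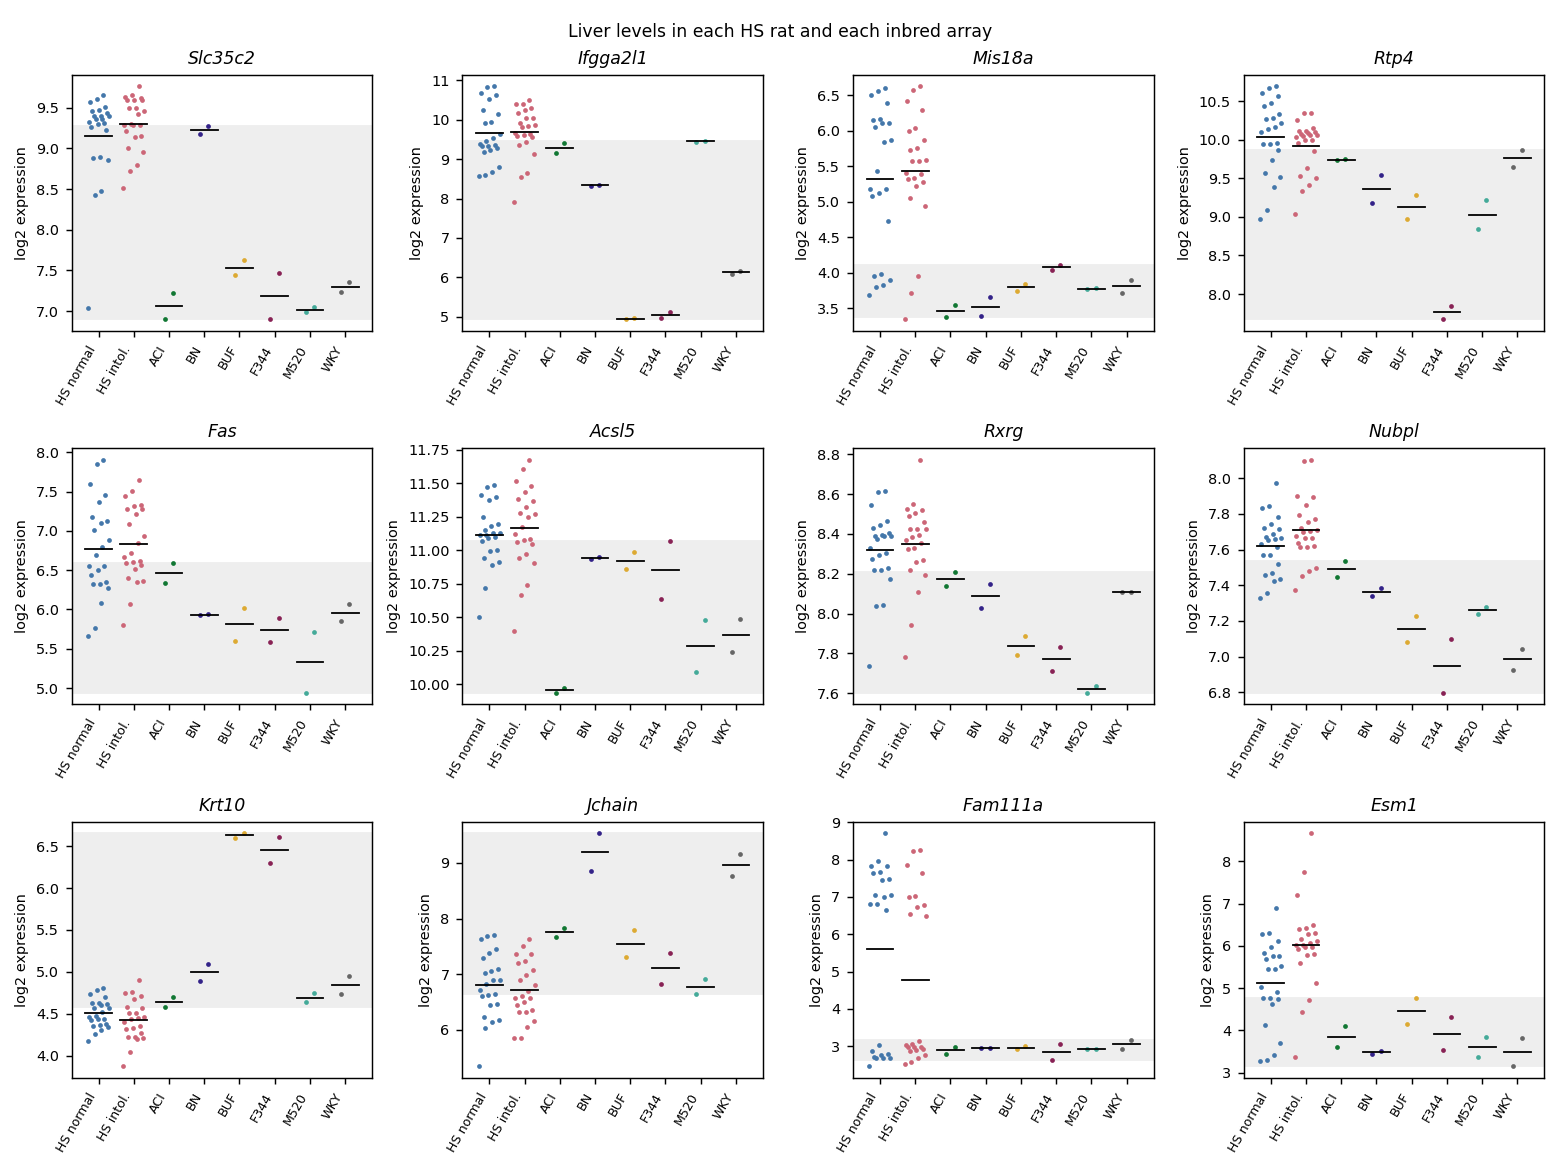
Log2 expression on every array for 12 genes, with HS rats split by glucose tolerance, the 6 strains side by side, black lines for group means and grey bands for the range of the 12 inbred arrays. Slc35c2 in HS rats sits at the BN level, Fam111a splits the HS rats into 24 above and 22 at the inbred level, and Krt10 is low in HS rats beside BUF and F344.

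Fewer genes were lower in HS rats. Krt10, a keratin of differentiating epidermis that is at a low level in liver, was at 3.87, 4.46 and 4.90 (lowest, median, highest HS rat). The strain means were 6.63 in BUF and 6.46 in F344 but 4.64 to 4.99 in the others, so the HS rats stood nearest the 4 low strains, and 33 of them lay under every inbred array. The difference was -0.91 ± 0.15 (SE; adjusted p = 0.000815, limma) and was called in each of the 18 fits. Its 3 nearest measured neighbours on each side, mostly other keratins, were not called.

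Jchain, which links antibody molecules into polymers and marks plasma cells, was at 5.34, 6.71 and 7.71 (lowest, median, highest HS rat). Strain means ran from 6.77 in M520 and 7.10 in F344 to 8.96 in WKY and 9.20 in BN, and 21 HS rats lay under every inbred array. The difference was -1.14 ± 0.26 (SE; adjusted p = 0.0327, limma) and was lost without BN or WKY (adjusted p up to 0.238). A second Jchain probe set was also lower, by -0.36 (adjusted p = 0.0444, limma). Jchain was the 1 called gene of 19 measured lymphocyte markers; 13 of the 19 had a lower HS mean, their median difference was -0.02, and the list's mean level was 4.69 to 5.43 in HS rats and 5.02 to 5.17 in strain means. In whole liver, fewer cells of a type and less RNA per cell cannot be told apart.

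Other genes below all strains differed by less. Erp29, a chaperone of the endoplasmic reticulum, was at 8.65, 9.04 and 9.40 in HS rats and 9.10 to 9.60 in strain means, a difference of -0.33 ± 0.08 (SE; adjusted p = 0.0345, limma) that was lost without ACI, BUF, F344 or WKY or 1 BUF array (adjusted p up to 0.158). Zfat, a zinc finger regulator of immune cells, differed by -0.30 ± 0.07 (SE; adjusted p = 0.0372, limma), lost without ACI, BN, F344 or WKY or 1 array each of ACI, BUF and WKY (adjusted p up to 0.185). Cdc20, an activator of the mitotic ubiquitin ligase, was at 4.26, 4.83 and 5.29 in HS rats and 4.85 to 5.49 in strain means. Its difference of -0.33 ± 0.07 (SE; adjusted p = 0.0307, limma) was lost without ACI, BN, BUF or F344 or without 1 array of any strain (adjusted p up to 0.218), and 4 of its 5 probe sets were dimmer and not called.

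Of the aldo-keto reductases, which reduce steroids and other carbonyl compounds, 2 neighbouring genes were called in opposite directions. Nearby Akr1c1, Akr1c3, Akr1c14, Akr1c19 and Akr1e2 were not called, with differences from -0.29 for Akr1c19 to 0.58 for Akr1c14. Whether probe sets of this family pick up related transcripts was not tested. Akr1c13 was lower in HS rats, by -0.39 ± 0.09 (SE; adjusted p = 0.0256, limma), with strain means from 11.46 in BUF to 12.50 in WKY and HS rats at 11.13, 11.47 and 11.78. AKR1C3l1, with no measured gene between, was higher by 1.39 ± 0.27 (SE; adjusted p = 0.00893, limma). Its strain means were 6.05 in BN and 7.40 in F344 against 9.90 to 10.56 in the others, and HS rats, at 9.74, 10.39 and 11.13, all stood at the higher level. Without BN or F344 its call was lost (adjusted p up to 0.115), and averaged linear levels differed by 0.76. The call of Akr1c13 was lost without BN, F344 or WKY or 1 BUF array (adjusted p up to 0.247).

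Some other called genes had an HS mean inside the strain range, and those with larger differences are named here after their values were seen. Mst1, a hepatocyte-made ligand of the macrophage receptor RON, was at 10.65 to 10.87 in ACI, BN and F344 and at 7.51 to 8.15 in BUF, M520 and WKY. HS rats were at 9.84, 10.74 and 10.96 (lowest, median, highest), all far above the low strains, and the difference was 1.28 ± 0.25 (SE; adjusted p = 0.00979, limma), 0.70 for averaged linear levels. It was lost without BUF, M520 or WKY (adjusted p up to 0.117). Sort1, a sorting receptor that acts in lipoprotein secretion, was at 9.58 in BUF and 8.0 in WKY against 6.81 to 7.08 in the others, with HS rats at 6.45, 6.83 and 7.23. Its difference of -0.70 ± 0.16 (SE; adjusted p = 0.0372, limma) was -0.29 without BUF (adjusted p = 0.445) and was also lost without WKY.

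Ugt2b34l1, of a glucuronosyltransferase family that conjugates steroids and drugs, was higher by 1.26 ± 0.21 (SE; adjusted p = 0.000824, limma). HS rats were at 6.38, 7.60 and 8.35 (lowest, median, highest). Their median lay near BN at 7.67 and above the other strains at 5.47 to 6.63, though the lowest HS rat lay within that range. Eid1, a regulator of transcriptional coactivators, was lower by -0.73 ± 0.13 (SE; adjusted p = 0.00345, limma), with HS rats at 8.55, 8.84 and 9.78, ACI at 8.70 and the other strains at 9.64 to 10.19. Pard6g, a cell polarity protein at a low level here, was lower by -0.85 ± 0.14 (SE; adjusted p = 0.000824, limma), with HS rats near ACI, M520 and WKY. These 3 genes were called in each of the 18 fits, as were 5 already named, so 8 of the 44 called genes kept their call throughout and 36 lost it in at least 1 fit.

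Among called genes with little described role in liver, or below the median level in both groups, also named after their values were seen, Cyp2j10, a cytochrome, was higher by 0.62 and Man1a1, a mannosidase of protein glycosylation, by 0.34. Brcc3-ps7, annotated as a pseudogene, was lower by -0.54 and Tenm3, a teneurin of cell adhesion, by -0.37. Their adjusted p were 0.0156, 0.0176, 0.031 and 0.0176 (limma). A dimmer probe set of Man1a1 differed by 0.18 and was not called. The calls were lost without BN or WKY for Cyp2j10 (adjusted p up to 0.0801), BUF or F344 or 1 BUF array for Man1a1 (0.153), BN or BUF or 1 array each of M520 and WKY for Brcc3-ps7 (0.329), and F344 or M520 for Tenm3 (0.197). The remaining called genes differed by 0.50 or less in size, apart from Phf19, a Polycomb-associated protein (1.0), and Zfp64, a zinc finger protein (-0.58).

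HS rats with and without glucose intolerance were also set against the same inbred arrays. In a limma fit of both HS groups and the strain means, 23 probe sets (0.0741%) were called for normal rats, 97 (0.312%) for intolerant rats and 19 for both. With the other HS group left out of the fit, the counts were 11 for normal and 27 for intolerant rats. A limma test of intolerant against normal rats called 0 probe sets, with 2503 at an unadjusted p under 0.05. The largest contrast among the genes above was Esm1, at 5.12 ± 1.02 in normal and 6.03 ± 1.05 in intolerant rats (SD, n = 23 each), a difference of 0.91 with an adjusted p of 0.366 (limma).

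Of 696 measured entries in 34 lists, where a gene in several lists counts in each, 4 were called. They were Acsl5, Hadhb, Jchain and Cdc20, against 44 of 14217 genes (0.309%), and nothing is read from so few. The mean level of each list in HS rats lay within the range of the strains. Genes of fatty acid and triglyceride synthesis had a higher HS mean in 21 of 24 members (median difference 0.07, 1 called), and those of fatty acid oxidation and ketogenesis in 19 of 22 (0.11, 1 called). Among the latter, Acadl, a dehydrogenase of long-chain fatty acids, lay above all strains without a call (difference 0.26, adjusted p = 0.0697, limma). Glutathione and NRF2 target genes had a higher mean in 16 of 23 members (median 0.21), with Ephx1, an epoxide hydrolase, at 0.57 (adjusted p = 0.0776, limma). In the xenobiotic list, Aldh1a1, which oxidises retinal, differed by 0.90 (adjusted p = 0.0763, limma), with HS rats at 10.85 to 12.89 and strain means at 9.53 to 12.17.

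Cell cycle genes had a lower HS mean in 26 of 27 members, with a median difference of -0.11 and 1 call. Their mean level was 4.89 to 5.34 in HS rats and 5.0 to 5.45 in strain means, so the ranges overlapped. Constitutive proteasome subunits were lower on average in 22 of 25 members (median -0.09, 0 called), with Psmd11, of the regulatory particle, at -0.16 and below all strains (adjusted p = 0.264, limma). Over all 14217 genes, 45.2% had a higher HS mean.

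Markers of other liver cell types stood a little lower in HS rats without passing the test, apart from Jchain. Kupffer cell and macrophage markers had a lower HS mean in 14 of 16 (median -0.18), and their mean level was 7.68, 8.41 and 9.08 (lowest, median, highest HS rat) against 8.26 in M520 to 9.05 in BN. The lysozyme gene Lyz2 was at 8.52, 10.19 and 11.07 in HS rats and 10.43 to 12.21 in strain means, a difference of -1.09 ± 0.29 (SE; adjusted p = 0.0948, limma). Endothelial markers were lower on average in 14 of 16 (median -0.10), bile duct markers in 9 of 10 (-0.14) and hepatocyte markers in 12 of 15 (-0.05). Their part in the other results was not tested.

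**Figure D4:**
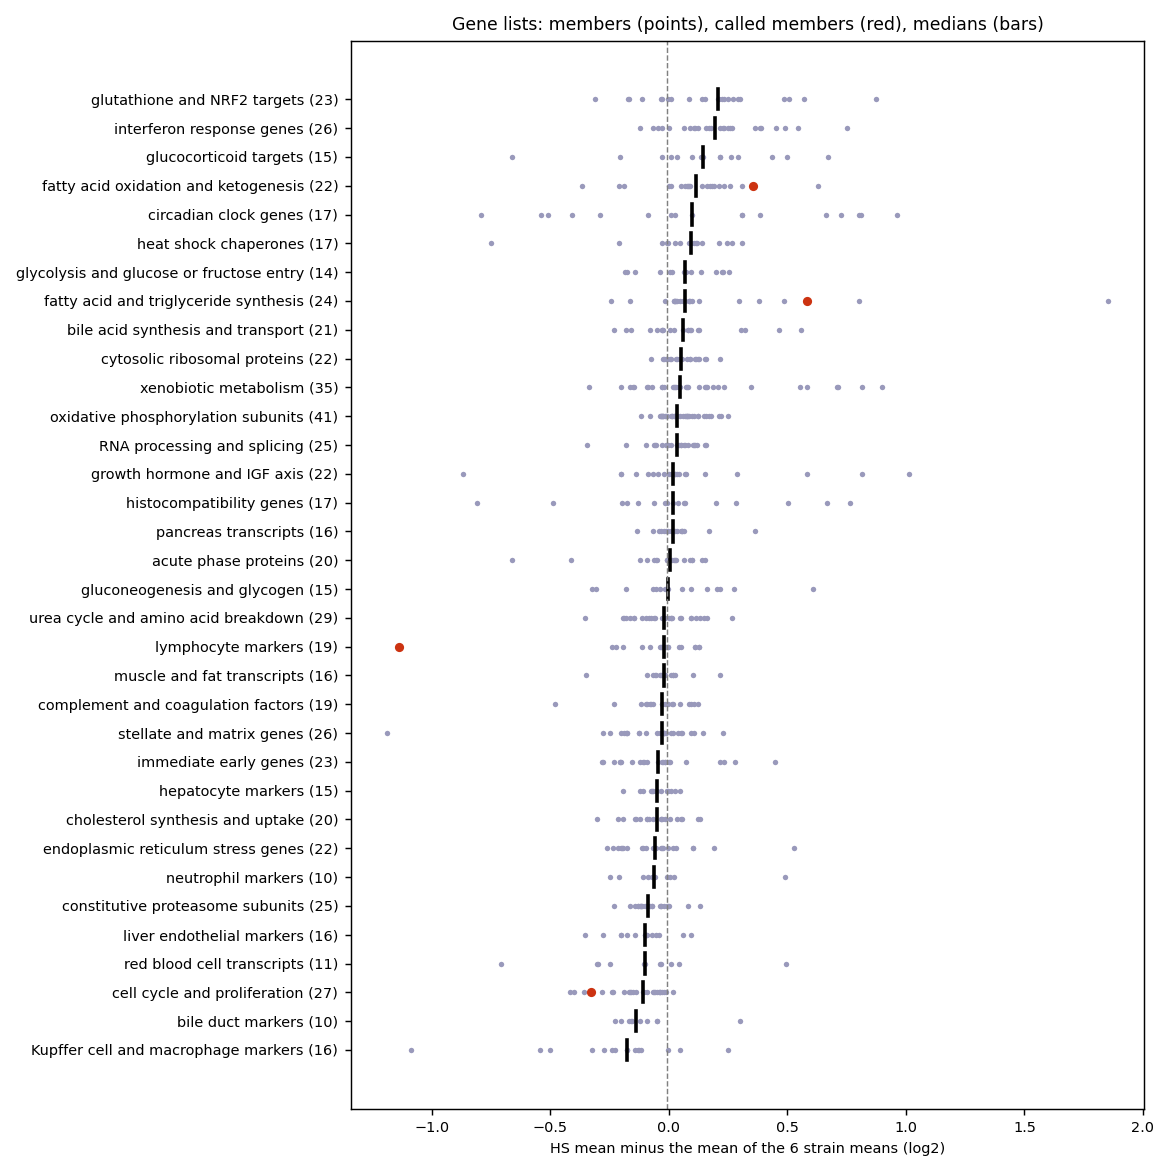
Difference between the HS mean and the mean of the strain means (log2, horizontal) for every measured member of 34 gene lists, with the number of members in brackets, black bars for list medians, red points for the 4 called members and a dashed line for the median of all genes, -0.01. List medians run from -0.18 for Kupffer cell markers to 0.21 for glutathione and NRF2 targets.

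Single HS rats differed widely where the strains themselves were far apart. Among 62 genes whose strain means ranged over 3 or more, the HS mean lay outside the strains for 1, which the choice of genes by a wide strain range favours, and 26 had an SD above 1 among HS rats. The HS mean was above the inbred level for 43 of the 62 and for 38 when linear levels were averaged. Their median SD was 0.93 over HS rats and 1.41 over strain means, against 0.17 and 0.15 over all probe sets.

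The 6 of these with the largest HS spread show the pattern by animal. Ugt2b, a glucuronosyltransferase, had strain means of 5.29 in WKY to 13.39 in BUF, and 5 HS rats lay at 8.73 or less and 41 at 12.83 or more. Mlc1, a membrane protein, was at 4.49 in WKY and up to 9.60 in F344, and 5 HS rats lay at 4.75 or less and 41 at 7.94 or more; 4 lay below every inbred array and 2 above. Ubd, a ubiquitin-like modifier, ranged from 5.11 in BN to 10.41 in ACI, with 11 HS rats below and 35 above the midpoint of that range. For these genes the HS rats fell mostly on the high side, which for Mlc1 was also the side of every strain but WKY (next strain 8.75). Mean Ubd levels were 7.57 ± 1.93 in the 23 normal rats and 9.13 ± 1.04 in the 23 intolerant rats (± SD), and the gap of 1.56 ± 0.47 (SE) between them was not called (adjusted p = 0.364, limma).

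Tmem14a, a membrane protein, ranged from 4.24 in BUF to 8.34 in ACI, with 31 HS rats at 5.36 or less and 15 at 6.83 or more; 8 lay below every inbred array and 1 above. Bcl6, a repressor of growth hormone and immune target genes, had strain means from 6.93 in BUF to 10.38 in ACI. Of the HS rats, 29 lay below the midpoint and 17 above. The 2 arrays of a strain disagreed widely in BN (6.69 and 10.60), WKY (7.47 and 10.89), F344 (6.65 and 9.04) and BUF (6.02 and 7.84). Those of ACI and M520 lay closer together. The range of the Bcl6 strain means therefore cannot be read as a difference between strains. Scd, which desaturates stearate and palmitate, was at 4.79 in BN and up to 10.78 in F344, while HS rats were at 7.14, 10.82 and 13.16 (lowest, median, highest). No HS rat was as low as BN, and 19 exceeded every inbred array. None of the 6 was called: differences were 2.90, 0.14, 1.51, -0.27, -0.20 and 1.85 for Ugt2b, Mlc1, Ubd, Tmem14a, Bcl6 and Scd.

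**Figure D5:**
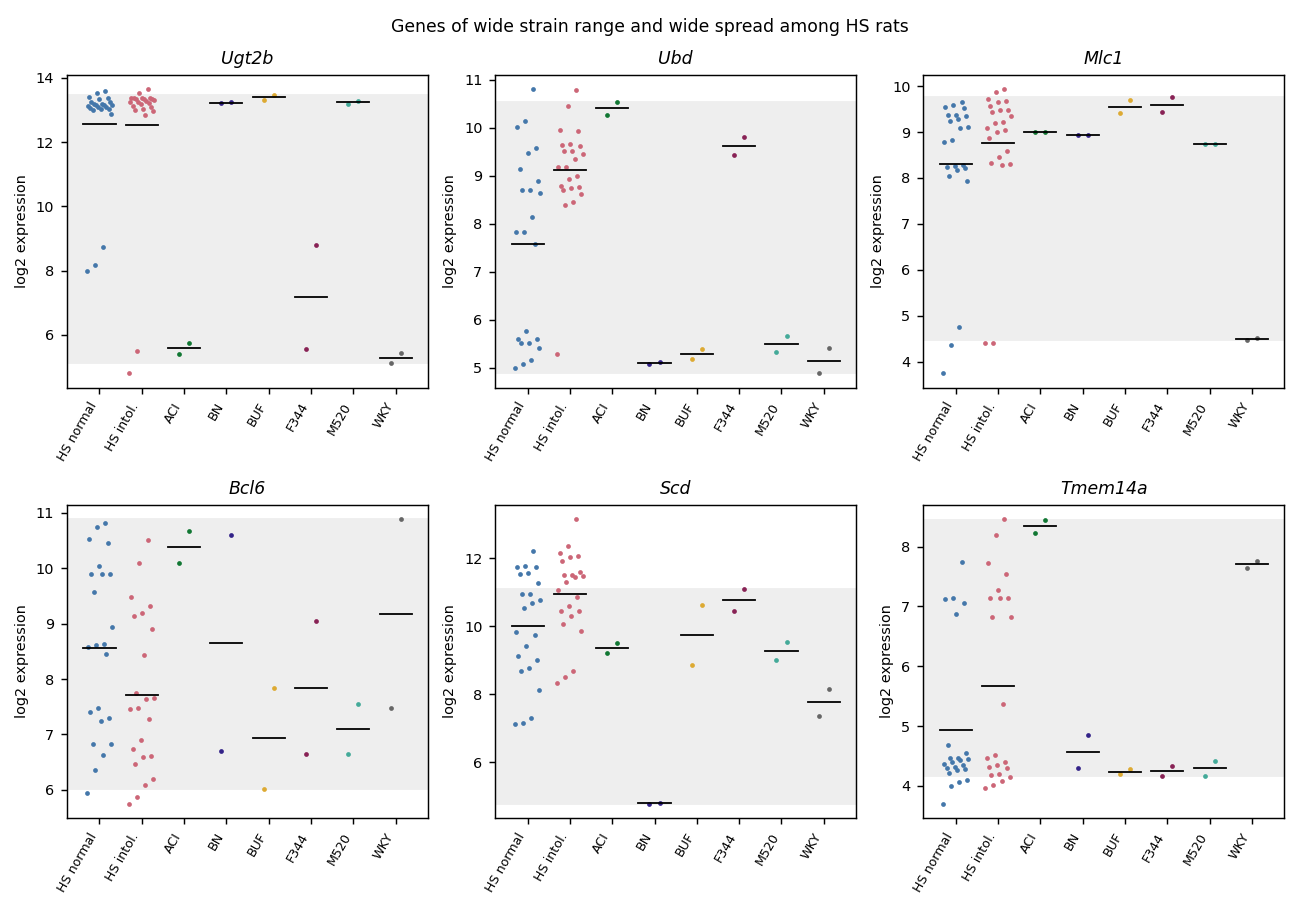
Log2 expression on every array for the 6 genes with the widest HS spread among those whose strain means range over 3 or more, with black lines for group means and grey bands for the range of the 12 inbred arrays. HS rats of both glucose groups fall at separate levels for Ugt2b, Mlc1 and Tmem14a, and 19 HS rats lie above the grey band for Scd.

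Among the strains, ACI was nearest to the HS mean. The median absolute difference over genes was 0.0934 for ACI and 0.109 to 0.159 for the other strains, and 87 genes differed by 1 or more from ACI against 105 to 204 for the others. Pairs of strains differed by 1 or more in 146 to 435 genes. The HS mean is an average of 46 arrays and a strain mean of 2, and the part of that averaging in the contrast was not tested.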

How the data were processed

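Liver RNA of 58 rats was amplified and hybridised to Affymetrix rat arrays, per the labels. The authors deposited log2 expression values for 31042 probe sets; Partek is named in the submitters' processing notes with no version, and how the values were normalized was not given in the sources used here. Signal has no read depth; precision depends on the number of arrays. Names came from the platform annotation, updated through gene identifiers (14167 of 14217 found in GRCr8): 20826 had 1 symbol, 436 several and 9780 none. A gene is represented by its probe set of highest mean.

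The difference is the mean of 46 HS arrays minus the mean of 6 strain means, tested two-sided with limma 3.58.1 in R 4.3.3 (lmFit, eBayes) and Benjamini-Hochberg adjustment over all probe sets at 0.05. HS groups were compared in a fit of 3 groups. Separate spreads, an exact rank-sum test, strains as groups or blocks, other scalings, and leaving out each strain, inbred array or HS group were alternatives. Named genes were the largest called differences outside all strains and above the median level, called list members or else the member of smallest p per list, and the 6 most variable of strain-divergent genes. Of 796 list entries, 696 were measured, with a gene in several lists counted in each. The comparison and the lists were chosen with earlier results of these data known. The test was tried on simulated data.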

Additional observations from a re-analysis of the deposited data

Results flagged for a closer look

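In 7 of 53 screened genes, 1 strain mean stood apart from the other five by more than Dixon's criterion at the 95% level. Chance flags about 1 in 20 groups when genes are not chosen by their values. The 53 were named by rules that used these same values, so that rate does not hold for them and no excess is read. Slc35c2 in BN was at 9.23 (HS mean 9.23, next strain 7.53). Rtp4 in F344 was at 7.76 (next strain 9.03) and Serpina3m in WKY at 9.96 (next 11.89). WKY also stood apart for Mlc1, at 4.49 (next 8.75), for the histocompatibility gene RT1-A3, at 7.61 (next 4.63), and for the keratin Krt8, at 10.9 (next 10.45). The cytochrome Cyp2c13 in F344 was at 13.4 (next 13.64, HS mean 13.45).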

How the results depend on the processing

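The count of 73 called probe sets rests on how the strains enter. It was 1530 (4.93%) with the strains as fixed groups, which leaves out the spread between strains, 261 with strain as a random block, 30 with separate spreads and 0 by the exact rank-sum test. It was 11 with HS normal rats alone, 27 with HS intolerant rats alone, and 47, 45, 48 and 46 without BN, BUF, F344 or M520, where fewer strains remain. Leaving out 1 inbred array gave 58 to 103. Weights, trend, quantile scaling, median centring, brighter probe sets, and leaving out ACI or WKY kept the count within 1.5 times. Removing 1 BUF and 1 M520 array together, chosen after seeing the data, gave 94. Of the 44 called genes, 37 kept their call after quantile scaling, 31 without ACI and 19 without BUF or F344. Among the 14 arrays numbered 1 and 2, a replicate block gave 541 calls and no replicate block 583. Differences of array 1 minus array 2 correlated from -0.21 to 0.42 in 21 pairs of groups, over 0.1 in 5. The main fit did not treat the numbers as pairs, and whether same-numbered arrays share a batch is not recorded.

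The HS mean lay outside the strains in 1783 probe sets, in 259 against the range of the 12 arrays, and in 3981, 2747, 3031 and 3015 without ACI, BN, M520 or WKY. Called list members fell from 4 to 2 when probe sets were averaged. Uncalled genes changed sign: RT1-A3 to 0.0742 and Mlc1 to -0.64 without WKY; Mlc1 to -0.0942 and Bcl6 to 0.22 with HS normal rats; Tmem14a to 0.11 with HS intolerant rats, 0.29 without ACI and 0.16 without WKY; Bcl6 to 0.20 without ACI, 0.0821 without WKY replicate 2 and 0.12 without BN replicate 1 (range over left-out arrays -0.53 to 0.12). Among the 14 numbered arrays, with or without the block, Ass1 was at 0.0051, Serpina1 at 0.0072, Mlc1 at -2.40 and Bcl6 at 0.30. The cause of these changes was not tested. Brightness limits 15 calls, whose levels lay under the median of all values in both groups.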

Other observations

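Other list members of smallest p, none called by limma, add values for processes not described above. The clock repressor Nr1d2 differed by 0.80 (adjusted p = 0.197) and the iron-binding acute phase protein Lcn2 by -0.66 (adjusted p = 0.225). The red cell anion exchanger Slc4a1 differed by -0.71, the glycogen synthase Gys2 by -0.33, the lactate dehydrogenase Ldha by 0.23 with an HS mean above all strains, and the complex I subunit Ndufa8 by 0.22, also above all strains. The ribosomal protein gene Rpl19 differed by 0.11.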
